A study of Mus musculus with 8 samples.

Results

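Plasminogen activation was examined through 7 genes: the activators Plau and Plat, the zymogen Plg, the inhibitors Serpine2 and Serpinf2, the receptor Plaur, and Thbs1. The 7 were chosen by their role in this system with the values of knockout and wild-type libraries already known, so the differences between genotypes given for them are a description and support nothing by themselves. All 7 were among the 24411 genes in the table and all 7 were among the 12122 that passed the low-count filter and were tested. The 8 libraries came from hepatocytes of Taf2 conditional knockout mice, in which the deletion is specific to hepatocytes (4 libraries), and of wild-type mice (4 libraries), plated in culture and harvested 2 days later. Taf2 encodes a subunit of TFIID, the general factor that binds core promoters. The sources used here do not give the Cre driver, the deleted exons, the strain or the age of the mice. Non-parenchymal cells carried over in such a preparation would keep Taf2 in a hepatocyte-specific knockout.

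Plasmin, the protease that dissolves fibrin and degrades matrix proteins, is cut from plasminogen by urokinase or by tissue plasminogen activator. Urokinase acts at the cell surface while bound to its receptor, and serpins block both the activators and plasmin. Hepatocytes are the main source of circulating plasminogen and of its fast inhibitor α2-antiplasmin, and the system takes part in matrix turnover and regeneration of the injured liver.

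Total estimated counts ran from 20287023 to 23933589 per knockout library and from 18947059 to 22824568 per wild-type library. Levels are given in CPM (counts scaled to library size, with TMM factors) for single libraries or, for each genotype, as a mean ± SD (n = 4). Taf2 stood at 12.7 to 15.7 CPM in knockout libraries and at 42.2 to 46.4 CPM in wild-type libraries, so every library matched its label (exact two-sided permutation p = 0.029, the smallest that 4 against 4 allows). The hepatocyte label was met in both genotypes. The 12 hepatocyte markers summed to between 79543 and 86788 CPM in the knockout and between 65623 and 70656 CPM in the wild type. Alb held most of both sums (means of 55183 CPM in the knockout and 38035 CPM in the wild type). Of the 12 markers 6 were called higher and 3 lower in the knockout, so the sums do not show a rise of the list as a whole. Nothing in the labels says that replicates came from separate animals or cultures, so p-values measure the spread between these libraries, which may be technical.

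Promoter sequence was at hand for 3 of the 7 genes, and these were the 3 with the largest decreases. The 150 bases before the start site of the RefSeq promoter table are shown, without the bases at and after the start. Plau, Plat, Plg and Thbs1 had no window to set beside these, so nothing about the decreases is read from the sequences. Sequences are RefSeq's (build GRCm38.p6, the mm10 assembly), 5′ to 3′ on the gene's strand, for Serpine2 at chr1:79858666-79858815 (minus strand), Plaur at chr7:24462333-24462482 (plus strand) and Serpinf2 at chr11:75439502-75439651 (minus strand). Capitals mark matches to the searched letters GGGCGG (GC box) and TGACTCA (AP-1 site).
Serpine2: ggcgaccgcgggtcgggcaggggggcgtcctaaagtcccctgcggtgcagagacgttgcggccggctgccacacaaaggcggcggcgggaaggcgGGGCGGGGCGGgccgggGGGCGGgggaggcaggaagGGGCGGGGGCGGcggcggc
Plaur: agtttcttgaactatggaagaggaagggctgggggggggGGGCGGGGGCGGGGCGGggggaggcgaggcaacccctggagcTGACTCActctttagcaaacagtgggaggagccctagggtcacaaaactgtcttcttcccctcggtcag
Serpinf2: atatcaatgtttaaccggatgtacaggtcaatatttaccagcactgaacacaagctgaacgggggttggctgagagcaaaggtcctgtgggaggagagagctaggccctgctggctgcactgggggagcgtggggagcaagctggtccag
The search also covered TATAAA and CCAAT, on both strands, and neighbouring GC boxes that overlap were each counted. In the Serpine2 window 81.3% of bases were G or C, against a median of 54.0% over 27025 promoters, and 1.78% of promoters reached that share. It held 5 GC boxes, a number that 0.936% of promoters reached. The share of G or C was 62.7% in the Plaur window, which 26.4% of promoters reached. In the Serpinf2 window it was 55.3%, near the median, and 46.6% of promoters reached it. The Plaur window held 3 GC boxes (5.62% of promoters had as many) and 1 AP-1 match, which 2.80% of promoters hold in the same 150 bases. None of the 4 sets of letters occurred in the Serpinf2 window. TATAAA and CCAAT were in 8.08% and 25.3% of all such windows and in none of these 3. A match is a description of letters and shows no binding.

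Serpine2 carried the largest difference among the 7 and was far lower in the knockout, Plau was the member called higher, and the values of Plg and Thbs1 overlapped between the genotypes. By edgeR's quasi-likelihood test with Benjamini-Hochberg adjustment over all genes, 4 of the 7 were called lower in the knockout (Serpine2, Plaur, Serpinf2, Plat) and 1 higher. Over all genes tested 31.2% were called lower and 30.2% higher. Nothing is read from the members' count, since this contrast was known when they were chosen. The groups did not overlap for 5 of the 7, against 54.7% of all genes tested. Estimated counts of all 7 were whole in every library, so no fractional share of reads was seen for them.

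**Figure D1:**
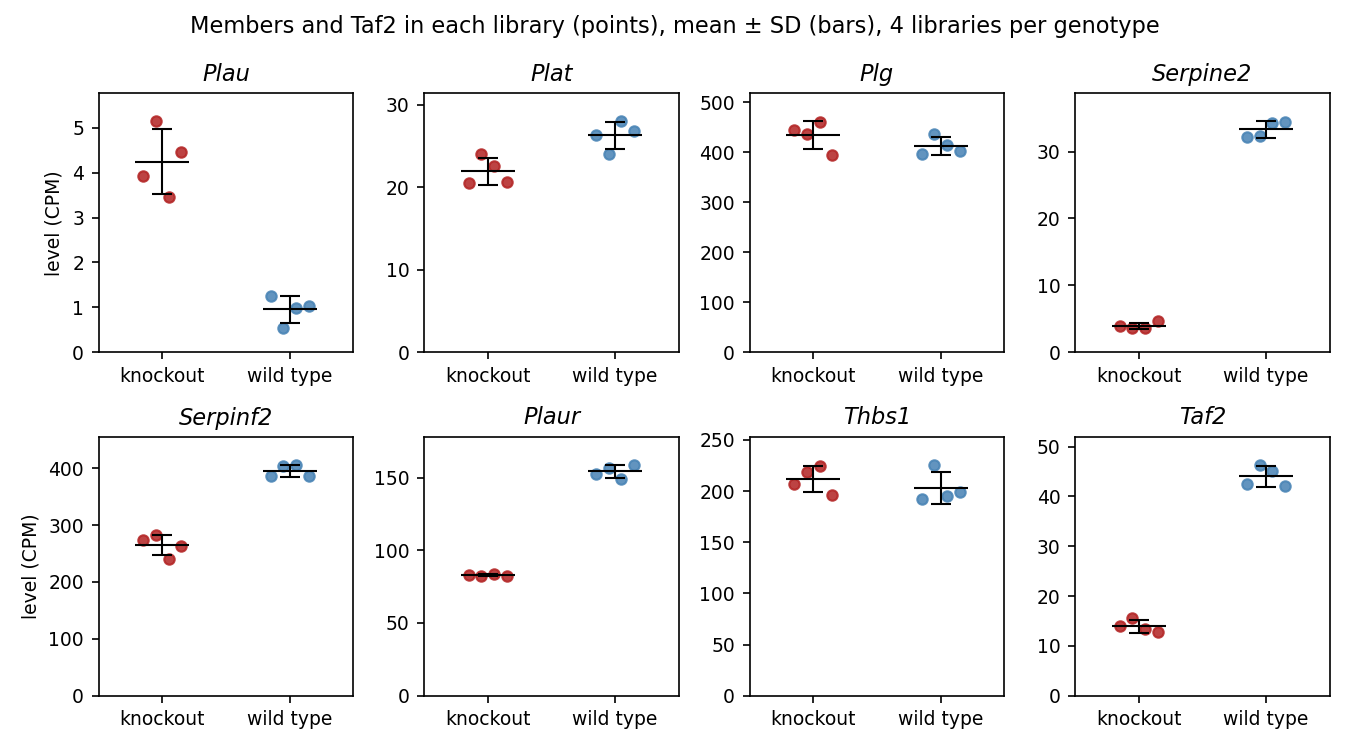
Level in CPM on the y axis for the 7 genes and Taf2, with knockout libraries on the left and wild-type libraries on the right of each panel; points are libraries, horizontal lines the mean and error bars the SD of 4 libraries. The genotypes are apart for Plau, Serpine2, Serpinf2, Plaur and Taf2, nearly touch for Plat (24.03 CPM in the highest knockout library and 24.1 CPM in the lowest wild-type library) and overlap for Plg and Thbs1.

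Plau, which encodes urokinase, lies on chromosome 14 from 20836662 to 20843388 (GRCm38.p6, as for all positions below). It stood at 3.94, 5.15, 3.46 and 4.45 CPM in knockout replicates 1 to 4, against 1.26, 0.535, 0.992 and 1.03 CPM in wild-type replicates 1 to 4. Every knockout library was above every wild-type library, and the log2 fold change was 2.13 (SE 0.20). These levels rest on 80 to 103 counts per knockout library and 11 to 29 per wild-type library. In the wild type they are the thinnest data of the set. The coefficient of variation was 17.0% in the knockout and 31.8% in the wild type, where counting alone gives 10.4% and 22.2%.

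Markers of other liver cells moved in the same libraries as Plau. The 15 macrophage markers summed to 245 to 275 CPM in the knockout and to 90.3 to 119 CPM in the wild type. Most of both sums was Cd68 (means of 172 CPM in the knockout and 84.1 CPM in the wild type), and all 13 that were tested rose. The 14 endothelial markers summed to 147 to 155 CPM in the knockout and to 55.2 to 61.5 CPM in the wild type, with 11 of 12 tested higher. Among 14 stellate cell and fibroblast markers 11 rose and 2, Acta2 and Tagln, fell. Their sum was 215 to 230.3 CPM in the knockout and 226 to 245 CPM in the wild type. Tagln held most of the wild-type sum (mean 139 CPM, against 27.6 CPM in the knockout), so the near-level sums hide the rise of the 11. Of 6 tested cholangiocyte markers 3 rose and 3 fell, with sums of 489 to 535 CPM in the knockout and 337 to 349 CPM in the wild type, and mesothelial markers summed to under 1 CPM in every library. The median log2 fold change was 2.11 over macrophage, 1.65 over endothelial and 1.98 over stellate cell markers. The part of these cells in the Plau difference was not tested, and in bulk RNA more cells of a type and more RNA per cell cannot be told apart.

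**Figure D2:**
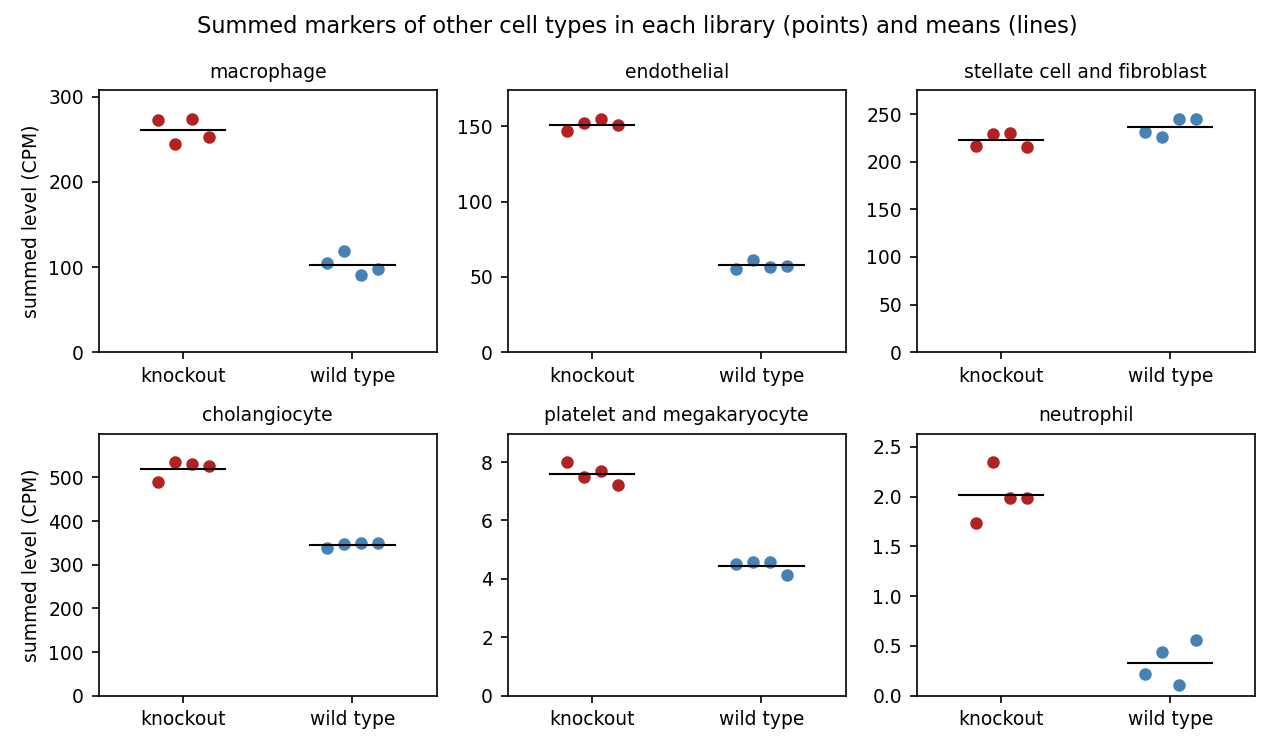
Summed level of each marker list in CPM on the y axis, with knockout libraries left of wild-type libraries in each panel; points are libraries and lines are means. Macrophage markers reach 245 to 275 CPM in the knockout and 90.3 to 119 CPM in the wild type, most of it from Cd68. Stellate cell and fibroblast markers reach 215 to 230.3 CPM in the knockout and 226 to 245 CPM in the wild type. Tagln, which fell, holds most of that wild-type sum.

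Plat, which encodes tissue plasminogen activator, lies on chromosome 8 from 22757722 to 22782848. It stood at 20.6, 24.03, 22.6 and 20.7 CPM in the knockout and at 26.4, 24.1, 28.03 and 26.8 CPM in the wild type. The highest knockout library and the lowest wild-type library were all but level, so the separation was narrow (log2 fold change -0.26, SE 0.063). Endothelial cells are a known source of Plat, their markers were higher in the knockout (147 to 155 CPM, against 55.2 to 61.5 CPM in the wild type), and their part in the level of Plat was not tested.

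Plg, which encodes plasminogen, lies on chromosome 17 from 12378609 to 12419384. It stood at 445, 437, 459.5 and 394 CPM in the knockout and at 396, 437, 415 and 402 CPM in the wild type. The ranges overlapped throughout (log2 fold change 0.073, SE 0.044), and the lowest value of all came from knockout replicate 4. Without that library Plg passed the threshold at a log2 fold change of 0.12.

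Serpine2 encodes protease nexin-1, an inhibitor of thrombin, of urokinase, of tissue plasminogen activator and of plasmin. By RefSeq it lies on chromosome 1 from 79794317 to 79858665, on the minus strand, just downstream of the GC-rich window above. The matched GENCODE transcript starts at 79858696, inside that window. By that start the GC boxes at -19 to -14 and -13 to -8 from the RefSeq start lie within the transcript. Its level was 3.85, 3.60, 3.54 and 4.59 CPM in the knockout and 32.2, 32.3, 34.2 and 34.5 CPM in the wild type. No knockout library came near a wild-type one, and the knockout mean was 11.7% of the wild-type mean (log2 fold change -3.09, SE 0.077). These levels rest on 72 to 97 counts per knockout library, about as few as for Plau there, and on 656 to 742 per wild-type library. Counted from the most negative log2 fold change, Serpine2 ranked 14 among the 12122 genes tested. In both genotypes the spread was close to counting noise, at 12.4% where counting alone gives 10.8% in the knockout and at 3.66% where it gives 3.78% in the wild type.

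Serpinf2 encodes α2-antiplasmin, the main direct inhibitor of plasmin in blood. It lies on chromosome 11 from 75431736 to 75439501 and stood at 274, 282, 239.8 and 263 CPM in the knockout, against 386, 403, 406 and 387 CPM in the wild type. The genotypes did not overlap, and the log2 fold change was -0.58 (SE 0.044). Plg and Serpinf2 therefore differed in how they stood relative to each other. Per kb of transcript, the level of Serpinf2 divided by that of Plg was 0.775, 0.812, 0.656 and 0.841 in the knockout and 1.22, 1.16, 1.23 and 1.21 in the wild type, a ratio that does not depend on library scaling.

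Plaur encodes the urokinase receptor and lies on chromosome 7 from 24460937 to 24475970. Those bounds, given by RefSeq for the whole gene, begin upstream of the matched GENCODE transcript, whose start at 24462484 lies next to the end of the promoter window above. Its level was 82.95, 82.2, 83.7 and 82.3 CPM in the knockout and 153, 157, 149 and 159 CPM in the wild type. Knockout libraries lay closer together (coefficient of variation 0.833%) than counting noise alone would give (2.34%), and the log2 fold change was -0.90 (SE 0.035). Receptor and ligand transcripts thus differed in opposite directions. Per kb, Plaur exceeded Plau by 24.9 to 37.7 times in knockout libraries and by 189 to 456 times in wild-type libraries. Neutrophils also express Plaur, and of 11 neutrophil markers found Mpo, Elane, Camp and Ltf had no count in any library. The list summed to 1.74 to 2.35 CPM in the knockout and 0.104 to 0.562 CPM in the wild type. Mmp8, the only marker of the list that was tested, held most of the knockout sum. It was called higher (1.57 CPM in the knockout and 0.178 CPM in the wild type, log2 fold change 3.09). Macrophage markers, given above, were higher in the same libraries. The part of neutrophils or macrophages in the level of Plaur was not tested.

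Thbs1 encodes thrombospondin-1, a matricellular protein that binds plasminogen and activates latent TGF-β, and lies on chromosome 2 from 118111876 to 118127133. It stood at 207, 219, 225 and 197 CPM in the knockout and at 192, 226, 195 and 199.6 CPM in the wild type. The ranges overlapped (log2 fold change 0.060, SE 0.050), with wild-type replicate 2 the highest of all libraries. Without that library Thbs1 passed the threshold at a log2 fold change of 0.11. Platelets store thrombospondin-1, and of 10 platelet and megakaryocyte markers 6 had no count in any library. The list sum was at least 7.20 CPM in knockout libraries and at most 4.59 CPM in wild-type libraries. Nearly all of it came from Clec1b and Itga2b. Clec1b was called higher (4.53 CPM in the knockout, 2.20 CPM in the wild type), and Itga2b was not called (2.82 and 2.23 CPM).

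The order of the levels per kb of transcript within the wild type does not use the contrast between genotypes. Serpinf2 was highest at 180.4 ± 4.85 CPM per kb (SD, n = 4), followed by Plg at 149.7 ± 6.60, Plaur at 102 ± 2.95, Thbs1 at 34.7 ± 2.63, Serpine2 at 15.1 ± 0.552, Plat at 10.4 ± 0.650 and Plau at 0.407 ± 0.129 CPM per kb. No neighbours in this order overlapped over the 4 libraries. The widest step was between Plat and Plau, 25.6-fold, and the narrowest between Serpinf2 and Plg, 1.21-fold. In the knockout Plg came first at 157 ± 10.2 CPM per kb, ahead of Serpinf2 at 121 ± 8.40, then Plaur at 54.99 ± 0.458, Thbs1 at 36.2 ± 2.15, Plat at 8.69 ± 0.659, Plau at 1.81 ± 0.309 and Serpine2 at 1.76 ± 0.219 CPM per kb. Plau and Serpine2 overlapped there and no other neighbours did. The ratio of Serpine2 to Plat per kb was 0.171 to 0.254 in knockout libraries and 1.39 to 1.53 in wild-type libraries, and that of Plat to Plau was 4.30 to 6.05 in the knockout and 19.5 to 41.8 in the wild type.

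**Figure D3:**
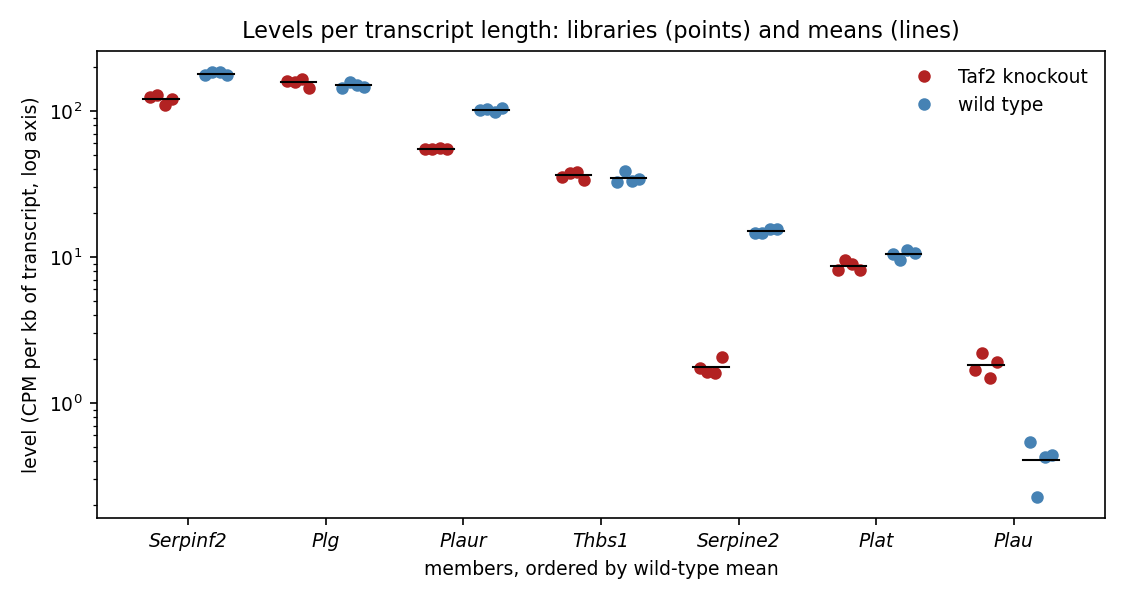
Level in CPM per kb of transcript (log axis) for the 7 genes ordered by their wild-type mean, with knockout libraries left of wild-type libraries for each gene; points are libraries and lines are means. Serpine2 is lowest in the knockout, where it meets Plau, and stands above Plat and Plau in the wild type.

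Genes whose level followed a member most closely over the 8 libraries were sought for the member with the largest difference and for Plg, the member with the highest mean CPM when length is not taken into account. With Serpine2, Pearson's r of log2 level was 0.9993 for Tacc1, 0.9991 for Gstm3 and 0.9989 for Gpd1l. These values mostly repeat the split between the genotypes, since 1203 of 9452 genes compared had an r over 0.95 with Serpine2. With Plg, which did not separate the genotypes, r was 0.9664 for Klf13, 0.9315 for Cfb and 0.9198 for 9930021J03Rik, and 1 gene of 9452 exceeded 0.95.

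The wider plasminogen system was then read from lists compiled by role. Of 32 genes tested in 4 lists, 12 were higher and 10 lower in the knockout, with a median log2 fold change of 0.045 against -0.0035 over all genes tested. These shares, 37.5% higher and 31.3% lower, stand beside 30.2% and 31.2% over all genes. The genotypes did not overlap for 22 of the 32, against 54.7% of all genes tested, and each list held called genes of both signs.

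Proteases that act upstream of plasminogen activation included 2 that rose and 3 that fell among 6 tested. Klkb1, which encodes plasma prekallikrein, rose to 7.03 ± 0.428 CPM in the knockout, against 4.37 ± 0.463 CPM in the wild type (log2 fold change 0.69, edgeR adjusted p = 5.14e-06). F11, which encodes coagulation factor XI, rose by 0.20 (adjusted p = 0.00682). Hpn, which encodes hepsin, a membrane protease of hepatocytes that can activate pro-urokinase, fell to 126 ± 3.66 CPM in the knockout, against 201 ± 3.25 CPM in the wild type (log2 fold change -0.67, adjusted p = 1.78e-12). Habp2, which encodes another activator of pro-urokinase, had a log2 fold change of -0.37 (adjusted p = 3.64e-06) and F12, the factor XII gene and the most abundant of the list, -0.12 (adjusted p = 0.00621).

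Among receptors, cofactors and plasminogen-binding proteins 4 of 12 rose and 2 fell. Itgb3, which encodes the β3 integrin chain that pairs with αv, rose to 18.5 ± 0.743 CPM in the knockout, against 5.88 ± 0.637 CPM in the wild type (log2 fold change 1.65, adjusted p = 3.97e-13). Eno1, a glycolytic enzyme gene whose product also binds plasminogen at the cell surface, rose by 0.55 (adjusted p = 2.44e-11), and part of its reads was shared with other genes in all 8 libraries. Hrg, which encodes histidine-rich glycoprotein, a plasma protein that binds plasminogen, rose by 0.33 (adjusted p = 1.18e-06). Lrp1, which encodes the endocytic receptor that clears inhibited activators, fell to 265 ± 10.01 CPM in the knockout, against 392 ± 27.5 CPM in the wild type (log2 fold change -0.57, adjusted p = 1.1e-09). S100a10, which encodes the annexin A2 partner that binds plasminogen, had a log2 fold change of -0.23 (adjusted p = 4.15e-05). Anxa2, the gene of annexin A2 itself, went the other way and rose by 0.11 (adjusted p = 0.0100).

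Of 8 tested inhibitors described here beside the members, 1 rose and 4 fell. Serpinb2, which encodes plasminogen activator inhibitor type 2, rose to 4.37 ± 1.07 CPM in the knockout, against 2.17 ± 0.124 CPM in the wild type (log2 fold change 1.00, adjusted p = 1.88e-05). It is also expressed by macrophages, whose markers were higher in the same libraries. A2m, which encodes the protease trap α2-macroglobulin, fell to 2.31 ± 0.577 CPM in the knockout, against 7.33 ± 0.409 CPM in the wild type (log2 fold change -1.65, adjusted p = 1.08e-09). Its abundant relative Pzp stood at 2327 ± 149 CPM in the knockout and 2693 ± 162 CPM in the wild type (log2 fold change -0.21, adjusted p = 0.000651). Cpb2, which encodes the carboxypeptidase that removes plasminogen-binding lysines from fibrin, had a log2 fold change of -0.20 (adjusted p = 4.05e-05).

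All 6 tested substrate genes were called, 5 higher and 1 lower. The 3 fibrinogen chain genes were among those that rose, Fgg to 1060 ± 37.8 CPM in the knockout, against 756 ± 49.4 CPM in the wild type (log2 fold change 0.49, adjusted p = 5.43e-09), and Fgb, the most abundant, to 2272 ± 86.2 CPM in the knockout, against 1839 ± 122 CPM in the wild type (0.30, adjusted p = 4.43e-06). Hgf, which encodes hepatocyte growth factor and is expressed by stellate cells rather than hepatocytes, rose to 2.72 ± 0.441 CPM in the knockout, against 0.813 ± 0.13 CPM in the wild type (log2 fold change 1.72, adjusted p = 1.79e-07). Tgfb1, which encodes transforming growth factor β1, rose by 0.76 (adjusted p = 1.02e-06). Macrophage markers were higher in the same libraries and stellate cell markers moved both ways (11 higher and 2 lower, with the sums given above), and the part of these cells in both rises was not tested. Mst1, which encodes macrophage-stimulating protein, had a log2 fold change of -0.25 (adjusted p = 2.64e-06). The matrix metalloproteinase genes Mmp2, Mmp3, Mmp9 and Mmp13 did not pass the low-count filter.

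**Figure D4:**
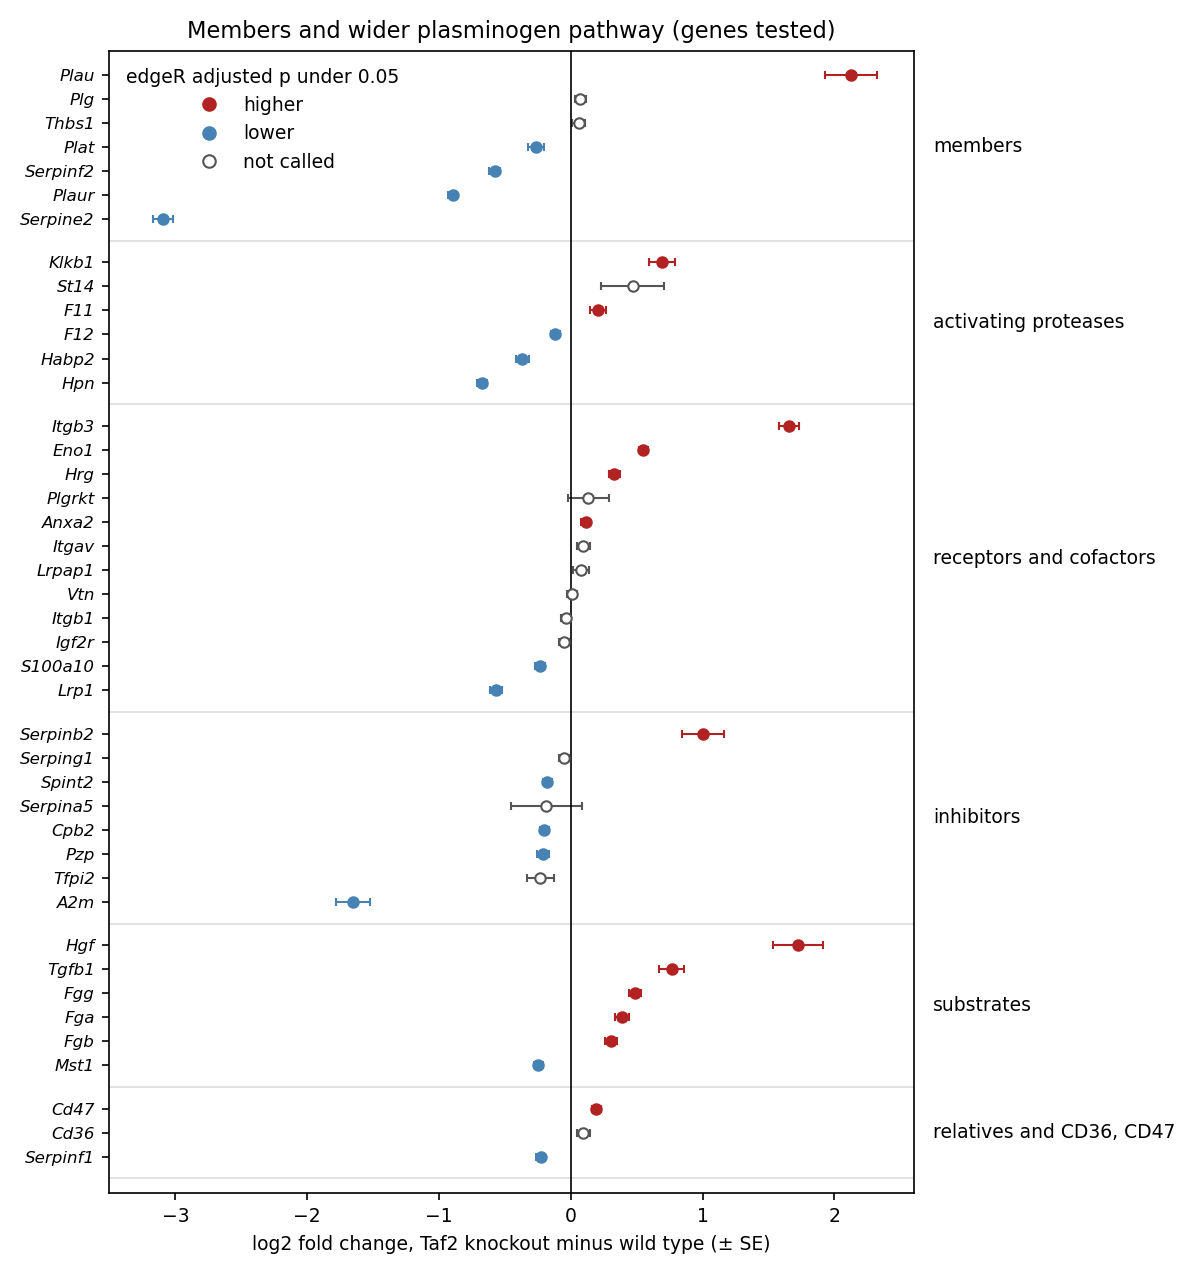
Log2 fold change (knockout minus wild type, x axis) with its SE for the 7 members, drawn at the top, and for the tested genes of the wider system by list; red points were called higher, blue points lower and open points were not called at an edgeR adjusted p under 0.05. Serpine2 at -3.09 and Plau at 2.13 lie at the ends of the range, and each list holds genes on both sides of 0.

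Relatives of the members were mostly at the limit of detection. Serpine3, Thbs2, Thbs3 and Thbs4 did not pass the low-count filter. Serpinf1, a relative of Serpinf2 that encodes the non-inhibitory serpin PEDF, stood at 189.6 ± 2.88 CPM in the knockout and 222 ± 5.20 CPM in the wild type (log2 fold change -0.23, adjusted p = 7.7e-06). Cd47, which encodes a receptor of thrombospondin-1, rose by 0.19 (adjusted p = 0.000142), and Cd36, which encodes another, stood at 31.5 ± 1.39 CPM in the knockout and 29.5 ± 1.22 CPM in the wild type (adjusted p = 0.113).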

How the data were processed

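RNA sequencing libraries of cultured hepatocytes were assigned to genotypes from their titles. The authors deposited expected counts per gene, made with RSEM on build mm10 per the submitters' processing notes, and 2.85% of these values were not whole. The sources used here do not give the aligner, versions or strand setting, so reads of overlapping antisense genes cannot be told apart. Another 8 columns carry names of no sample and entered no step.

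Counts were rounded, filtered with filterByExpr (minimum count 10, minimum total 15), scaled by TMM and compared across all genes with edgeR 4.0.16 in R 4.3.3 (genotype as the only term, Benjamini-Hochberg threshold 0.05). The SE is the absolute log2 fold change over the root of F. DESeq2 1.42.0 and limma 3.58.1 served as alternatives, and the scripts were tested on simulated data. Replicate libraries were not duplicates of each other (chi-square per degree of freedom 3.19 to 8.70 between pairs).

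Members, lists, tests and markers were chosen with earlier results of these data known. Named list genes were up to 3 called genes with the largest change in each direction and the most abundant one, at a mean of at least 1 CPM; genes outside this rule were named after their values were seen. Genes like a member were the 3 with the highest r of log2(CPM + 0.5), at a mean of at least 5 CPM. Transcript lengths are those of the GENCODE M21 transcripts matched to the RefSeq accessions. Of the inhibitor list, 1 gene is not reported here and is left out of all list counts; for that reason no sum over activators or inhibitors is given.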

Additional observations from a re-analysis of the deposited data

Results flagged for a closer look

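In 2 of 58 sets of 4 libraries examined, 1 library stood far from the other 3 of its genotype, where chance alone would give about 2.9. Serpinb2 was at 5.97 CPM in knockout replicate 4, against 3.76 to 3.95 CPM in the other knockout libraries. Without that library its log2 fold change was 0.82, against 1.00 with it. Tgfb1 was at 6.31 CPM in knockout replicate 1, against 7.44 to 7.59 CPM in the other knockout libraries. Without that library its log2 fold change was 0.83, against 0.76 with it.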

How the results depend on the processing

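Each of 16 alternatives (RLE, upper-quartile and no scaling, DESeq2, limma-voom, no and a stricter low-count filter, a replicate block, and each library left out) kept 4 members called lower. Serpine2 ranged from -3.17 to -3.05, Plau from 1.93 to 2.30, Plaur from -0.93 to -0.87, Serpinf2 from -0.61 to -0.53 and Plat from -0.31 to -0.23 on the log2 scale. Members called higher numbered 1 to 2 when each library was left out. The count of 2 came from Plg, at 0.12 without knockout replicate 4 (0.049 to 0.12 over the libraries left out), and from Thbs1, at 0.11 without wild-type replicate 2 (0.032 to 0.11). In the wider lists 12 to 15 genes were called higher and 10 to 11 lower.

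Replicate numbers are shared by the genotypes, but same-numbered libraries did not deviate together (correlations -0.0298 to 0.0198, and 0 of 4 knockout libraries correlated best with their own number), so the numbers do not pair the samples. With the replicate block 1 member was called higher and 4 lower, and the counts over all genes were 3666 higher and 3771 lower, against 3663 and 3784. Low counts limit Plau.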
